A study of Arabidopsis thaliana with 12 samples.

Results

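The genes described here are 3 nuclear genes of Arabidopsis thaliana whose products act in mitochondria: GLDH (AT3G47930), AT3G45770 and AT4G31930. Each was read from the array feature that the platform table assigns to it alone. They are 3 of the 692 genes measured in this way, on arrays of 3439 features. The genes were chosen because their levels in the flu mutant and the wild type (WT) had been seen to lie far apart on these arrays. Their differences between the genotypes are therefore given as a description, with no test.

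The comparison was between 2 groups of 6 arrays. The flu group came from the flu mutant of ecotype Landsberg and the WT group from wild-type plants of the same ecotype. Both had stood in the dark for 12 h before harvest. The labels do not give the allele, age or tissue, or say whether arrays came from separate plants, so a p-value here covers no more than the spread among these arrays, part or all of which may be technical.

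FLU is a plastid protein that holds back chlorophyll synthesis in the dark, and flu mutants accumulate the chlorophyll precursor protochlorophyllide there. The 3 genes lie outside that pathway. GLDH, L-galactono-1,4-lactone dehydrogenase, sits at the inner mitochondrial membrane, performs the last step of ascorbate synthesis and passes its electrons to cytochrome c. It is also needed for assembly of respiratory complex I in Arabidopsis. AT3G45770 encodes an enoyl reductase of mitochondrial fatty acid synthesis, the pathway that supplies the precursor of the lipoate cofactor of enzymes such as glycine decarboxylase. AT4G31930 belongs to the mitochondrial glycoprotein family, relatives of the matrix protein MAM33 of yeast.

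No feature lists FLU itself, so the mutated gene could not check the labels. Values are the deposited linear intensities. The highest value was 100 on every array, and how the scale was built is not given in the sources used here. Array medians ran from 0.426 to 0.442 in flu and from 0.443 to 0.491 in WT, and 138 to 165 features were listed at 0 on each flu array, against 108 to 131 on each WT array. The number of arrays limits the precision. None of the 15 markers of root, seed and pollen chosen for this work had a feature of its own, so the makeup of the tissue was not checked. In bulk tissue, fewer cells of a type and less RNA per cell cannot be told apart. In either genotype, array 1 resembled array 2, array 3 resembled array 4 and array 5 resembled array 6 (Spearman correlations of 0.909 to 0.967). These couples, as they are called here, are not named in the labels. Arrays of different couples correlated at 0.893 to 0.942 in flu, which overlaps the range within couples, and at 0.780 to 0.872 in WT, so the couples were less distinct in flu.

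GLDH was lower in flu. Its intensity on flu arrays 1 to 6 was 0.385, 0.399, 0.414, 0.331, 0.332 and 0.297. On WT arrays 1 to 6 it was 1.04, 0.936, 0.950, 0.955, 0.921 and 0.973. The groups did not overlap, the highest flu array lying at 0.414 and the lowest WT array at 0.921. The mean was 0.360 ± 0.0461 in flu and 0.963 ± 0.0430 in WT (SD, n = 6 arrays each), so WT held 2.68 times the flu level.

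On the log2 scale after flooring and quantile normalisation, the GLDH difference was -1.31, flu minus WT. It was -1.25, -1.25 and -1.44 in couples 1, 2 and 3, a range of 0.19. The SD of its normalised log2 values over the arrays was 0.16 in flu and 0.08 in WT, against medians of 0.25 in flu and 0.37 in WT over the 692 single-gene features. The GLDH difference ranked 33 from the lowest of the 692.

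AT3G45770, the enoyl reductase, was also lower in flu, and there it came close to the lower end of the scale. Flu arrays 1 to 6 gave 0.0900, 0.0463, 0.0452, 0.0982, 0.0429 and 0.00801. WT arrays 1 to 6 gave 0.392, 0.403, 0.215, 0.323, 0.190 and 0.180. No flu array reached the lowest WT array, the nearest values being 0.0982 in flu and 0.180 in WT. Flu averaged 0.0551 ± 0.0335 and WT 0.284 ± 0.102 (SD, n = 6 arrays each), a ratio of WT over flu of 5.15.

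Flu array 6 lay below the floor of 0.0236 to which low values were raised before the log2 scale, so the normalised difference of -1.91 understates that array. As deposited, with the floor but no quantile normalisation, the log2 difference of AT3G45770 was -2.38. With the floor set higher, at 0.0983, it was -1.29, since the 6 flu arrays then all lay under the floor. The couples gave -2.29, -1.36 and -2.08. The WT level itself differed by couple, at 0.397 in couple 1, 0.269 in couple 2 and 0.185 in couple 3. In flu couple 3 was lowest too, at 0.0254, against 0.0682 in couple 1 and 0.0717 in couple 2. That low mean rested on array 6, below the floor, since array 5, at 0.0429, lay near arrays 2 and 3 (0.0463 and 0.0452).

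AT4G31930, of the glycoprotein family, was higher in flu. Its flu arrays 1 to 6 read 1.48, 1.22, 1.65, 1.29, 1.65 and 1.53. Its WT arrays 1 to 6 read 0.303, 0.188, 0.605, 0.543, 0.0483 and 0.0866. All flu arrays lay above all WT arrays, with 1.22 the lowest in flu and 0.605 the highest in WT. The mean was 1.47 ± 0.179 in flu and 0.296 ± 0.234 in WT (SD, n = 6 arrays each), a ratio of flu over WT of 4.98. The log2 difference, 3.10, ranked 2 from the highest among the 692 single-gene features and 4 among all 3439. Its size leaned in part on dim values, since WT arrays 5 and 6 lay under the higher floor of 0.0983. With that floor the log2 difference of AT4G31930 was 2.73.

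**Figure D1:**
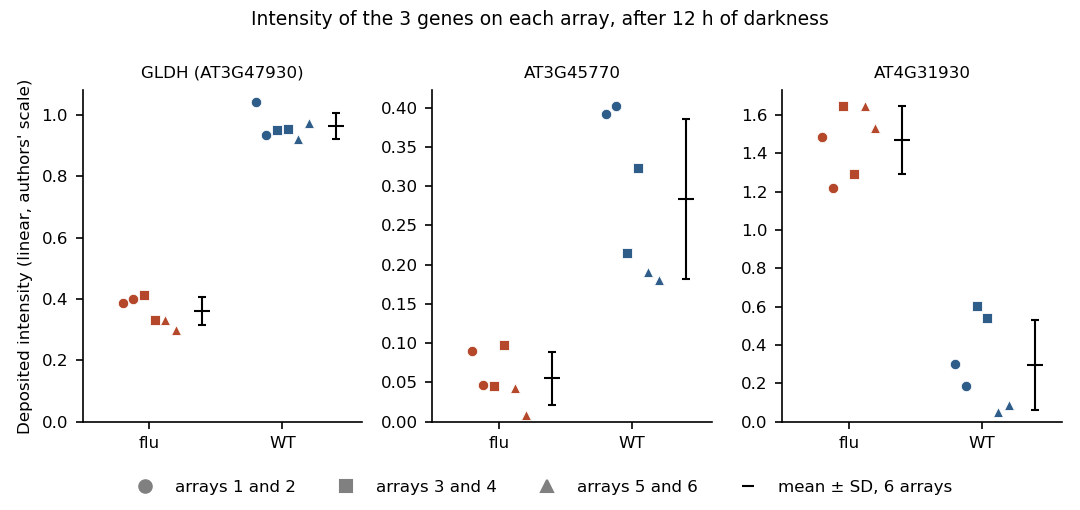
Deposited intensity (linear axis from 0, authors' scale) of GLDH, AT3G45770 and AT4G31930 on the 6 flu and 6 WT arrays, with marker shape for the couple and bars for mean ± SD over 6 arrays. No gene shows overlap between the genotypes, and the WT values of AT4G31930 split by couple from 0.0483 to 0.605.

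Relative to its level, AT4G31930 varied mainly in the WT. On the linear scale the SD over the arrays was of similar size, 0.179 in flu and 0.234 in WT. Flu arrays differed by at most 1.35-fold among themselves, whereas the highest WT array held 12.5 times the lowest. The WT couples averaged 0.245, 0.574 and 0.0674, and no array of 1 couple fell within the range of another. The SD of its normalised log2 values was 0.21 in flu and 1.64 in WT, and the WT value ranked 16 from the highest of the 692 single-gene features. That WT value includes the dim arrays 5 and 6, where small differences in intensity are large on the log2 scale. Differences within couples were 2.60, 1.50 and 5.19 on the log2 scale. Without WT arrays 5 and 6 the overall log2 difference was 2.13, and without WT arrays 3 and 4 it was 4.01.

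**Figure D2:**
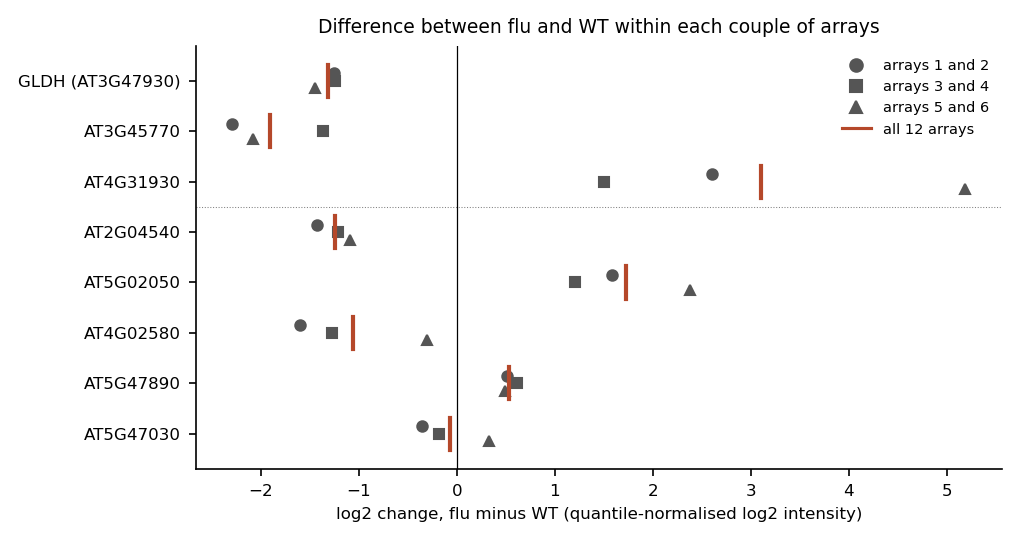
Log2 change, flu minus WT, on the quantile-normalised scale for the 3 genes (above the dotted line) and 5 other mitochondrial genes, with 1 point for each couple of arrays and a bar for all 12 arrays. The GLDH couples lie within 0.19 of each other, and those of AT4G31930 run from 1.50 to 5.19.

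The levels of the 3 genes thus separated the genotypes on all arrays, in opposite directions: GLDH and AT3G45770 were lower in flu and AT4G31930 was higher. Among all 692 single-gene features, 34.5% had groups that did not overlap (12.3% higher and 22.3% lower in flu). Since the genes were chosen on this contrast, nothing is read from their count.

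The difference between the genotypes varied in part with the number of the feature on these arrays. The numbers fall in 48 strips of 6 consecutive numbers that recur along the numbering, a grouping found on these data. Features within a strip also varied widely, and the share of the difference that goes with the strips was not measured. Each of the 3 genes lay in a different strip. The 71 other features in the strip of GLDH had a mean log2 difference of -0.54 (SD 0.56), in the same direction as GLDH, and 7 of them had a lower value than its -1.31. With the mean deviation of each strip subtracted on each array, the GLDH difference was -0.76, and it ranked 96 from the lowest of the 692.

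The other 2 genes went against their strips. The 71 other features in the strip of AT3G45770 averaged 0.35 (SD 0.78), and none was as low as -1.91. The 62 other features in the strip of AT4G31930 averaged -0.46 (SD 0.89), and none was as high as 3.10, the highest being 1.38. With strips centred, the log2 difference of AT3G45770 was -2.23 and that of AT4G31930 was 3.51, so both stood farther from 0 than before.

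**Figure D3:**
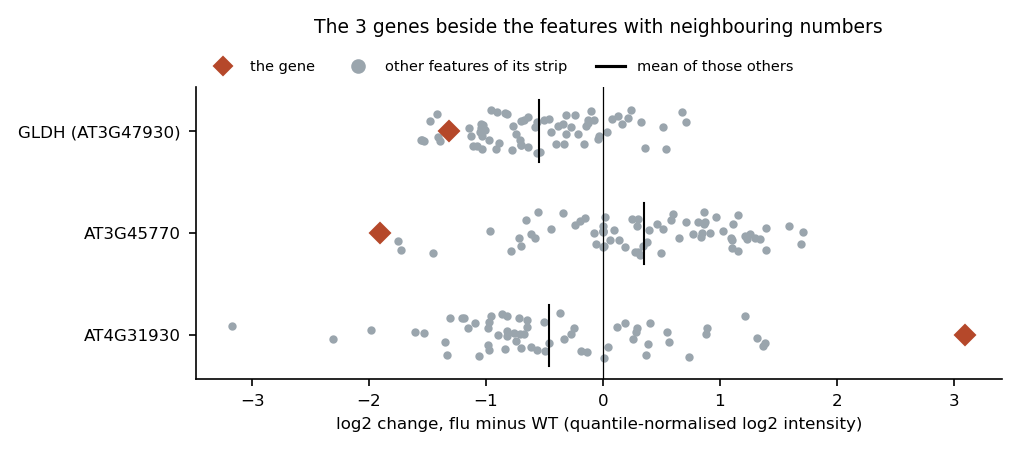
Log2 change, flu minus WT, of each of the 3 genes (diamonds) beside the other features of its strip (grey points) and their mean (black bars). GLDH lies within the range of its strip, AT3G45770 below all 71 others and AT4G31930 above all 62 others.

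Lists of 235 genes in all, of ascorbate metabolism, mitochondrial fatty acid synthesis, the glycoprotein family, the respiratory complexes, other mitochondrial functions and other tissues, were searched for genes with a feature of their own. Apart from the 3 genes, 5 were found: 1 of fatty acid synthesis, 1 of the glycoprotein family, 2 of complex I and 1 of ATP synthase. No other gene of ascorbate synthesis or recycling, and none of the citric acid cycle, alternative respiration, photorespiration, protein import or carrier lists, was measured alone. The lists were drawn up with earlier results of these data known, and the 5 genes were then tested with limma over all features. Of the 5, 2 passed as higher and 2 as lower in flu at an adjusted p below 0.05, where 49.7% of the 692 single-gene features passed (23.1% higher and 26.6% lower). Their median log2 difference was -0.07, against -0.0038 for the 692. Without regard to sign, the median was 1.06 for the 5 and 0.56 for the 692. The 1.06 is the value of 1 dim gene, AT4G02580, which depended on the floor, as given below, so nothing is read from it. With couples averaged 3 of the 5 passed, where 33.2% of the 692 did, and with strips centred too 2 of the 5, where 29.2% did. Over all 3439 features the shares were 52.2%, 34.7% and 27.8% in these 3 analyses.

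The second measured gene of the glycoprotein family, AT5G02050, rose in flu, the direction in which AT4G31930 stood. It read 0.933, 0.758, 0.844, 0.850, 0.842 and 0.759 on flu arrays 1 to 6, against 0.233, 0.397, 0.421, 0.411, 0.192 and 0.170 on WT arrays 1 to 6. All flu arrays lay above all WT arrays. Its log2 change was 1.73 ± 0.25 (SE, limma adjusted p = 0.000127) and 1.17 with couples averaged and strips centred (adjusted p = 0.0282). The mean of the 72 other features in its strip was 0.54.

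AT5G02050 and AT4G31930 also had the same order of the WT couples. AT5G02050 averaged 0.315, 0.416 and 0.181 in WT couples 1, 2 and 3, so couple 2 was highest and couple 3 lowest, as for AT4G31930. That order was found in 15.3% of the 692 single-gene features. In flu the couples of AT5G02050 were nearly level, at 0.846, 0.847 and 0.800. Its within-couple log2 differences of 1.59, 1.21 and 2.38 were ordered like those of AT4G31930. For both genes this order is that of the WT couples reversed, so it is no further likeness. Probe sequences were not used here, so whether the 2 features can bind transcripts of both relatives was not tested.

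AT2G04540, the mitochondrial beta-ketoacyl-ACP synthase, which extends the acyl chain in the same cycle that the enoyl reductase AT3G45770 completes, fell in flu. Flu arrays 1 to 6 gave 0.444, 0.426, 0.350, 0.394, 0.647 and 0.380, against 1.25, 1.20, 0.928, 0.940, 1.14 and 1.15 on WT arrays 1 to 6. The groups did not overlap, and flu array 5 stood above the other flu arrays. The log2 change of AT2G04540 was -1.24 ± 0.15 (SE, limma adjusted p = 3.27e-05) and -0.92 with couples averaged and strips centred (adjusted p = 0.00942). Its strip averaged -0.31 over 70 other features.

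Complex I, for which GLDH is needed during assembly, was represented by subunits that passed in opposite directions over 12 arrays. AT4G02580, the 24 kDa subunit of the NADH-binding arm, was dim, with 0, 0.0497, 0.0302, 0.0125, 0.0930 and 0.0463 on flu arrays 1 to 6, against 0.107, 0.176, 0.104, 0.145, 0.164 and 0.117 on WT arrays 1 to 6. Flu arrays 1 and 4 lay below the floor, array 1 being listed at 0. All 6 flu arrays lay below the lowest WT array. Its log2 value of -1.06 passed over 12 arrays (limma adjusted p = 0.0472). The value was -1.76 as deposited (adjusted p = 0.000631) and -1.66 with median centring (0.000765), and -0.28 with the higher floor (0.0381). It did not pass with couples averaged (adjusted p = 0.124), with strips centred too (0.378, log2 value -0.47), or without flu array 1, 2, 3 or 4 or WT array 1, 2, 4, 5 or 6 (0.0543 to 0.104).

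AT5G47890, the small B8 subunit of complex I, averaged 0.492 ± 0.103 in flu and 0.370 ± 0.0541 in WT (SD, n = 6 arrays each). Of its flu arrays 4 lay above all WT arrays, and 2, at 0.336 and 0.420, lay within the WT range of 0.303 to 0.444. Its log2 value of 0.54 passed over 12 arrays (limma adjusted p = 0.0154). Its strip averaged 0.46 over 75 other features, and with couples averaged and strips centred the value was 0.07 (adjusted p = 0.796). The adjusted p was 0.0724 without flu arrays 1 and 2, and 0.0707 without WT arrays 3 and 4.

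AT5G47030, the delta-prime subunit of mitochondrial ATP synthase, gave 0.287 ± 0.0646 in flu and 0.354 ± 0.0881 in WT (SD, n = 6 arrays each). The groups overlapped, with flu arrays from 0.200 to 0.384 and WT arrays from 0.281 to 0.520. Its log2 value of -0.07 did not pass (limma adjusted p = 0.795), and it was 0.24 with strips centred.

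**Figure D4:**
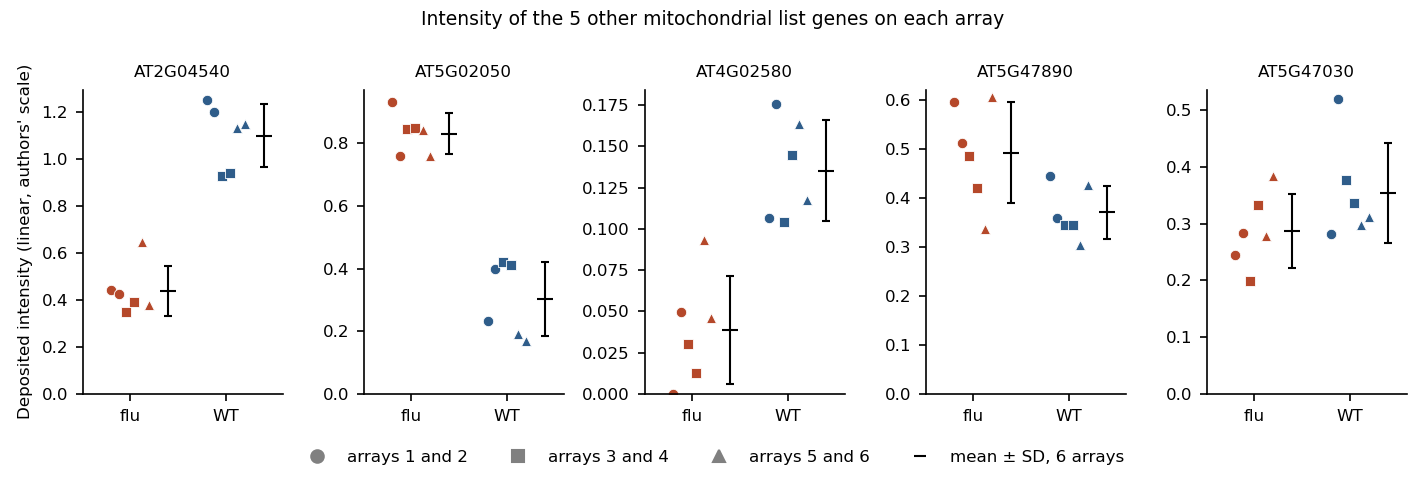
Deposited intensity (linear axis from 0, authors' scale) of the 5 other mitochondrial genes on the 6 flu and 6 WT arrays, with marker shape for the couple and bars for mean ± SD over 6 arrays. AT2G04540, AT5G02050 and AT4G02580 show no overlap between the genotypes, whereas AT5G47890 and AT5G47030 do.

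The genes whose patterns were most like those of the 3 genes were sought among the other 691 single-gene features. Likeness was the root mean square (RMS) difference between profiles over the 12 arrays, each profile being normalised log2 values minus the mean of the gene. For GLDH the nearest were AT3G57630 (RMS 0.15), AT4G33500 (0.18) and AT2G46910 (0.18), where the median over the 691 was 0.78. Their log2 differences were -1.38, -1.30 and -1.37. AT3G57630 and AT2G46910 both lay in the strip next to that of GLDH.

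The nearest profiles of the other 2 genes lay farther off. For AT3G45770 the nearest were AT5G19210 (RMS 0.62), AT4G26370 (0.62) and AT2G33180 (0.63), against a median of 1.22. AT2G04540, of the same pathway, ranked 28 of the 691, at 0.74. For AT4G31930 the nearest were AT1G51080 (0.94), AT5G46390 (0.99), a C-terminal processing peptidase, and AT3G52960 (0.99), the plastid type II peroxiredoxin, against a median of 1.93. Its relative AT5G02050 ranked 4, at 1.04. These likenesses include the difference between the genotypes, on which the 3 genes were chosen.

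**Figure D5:**
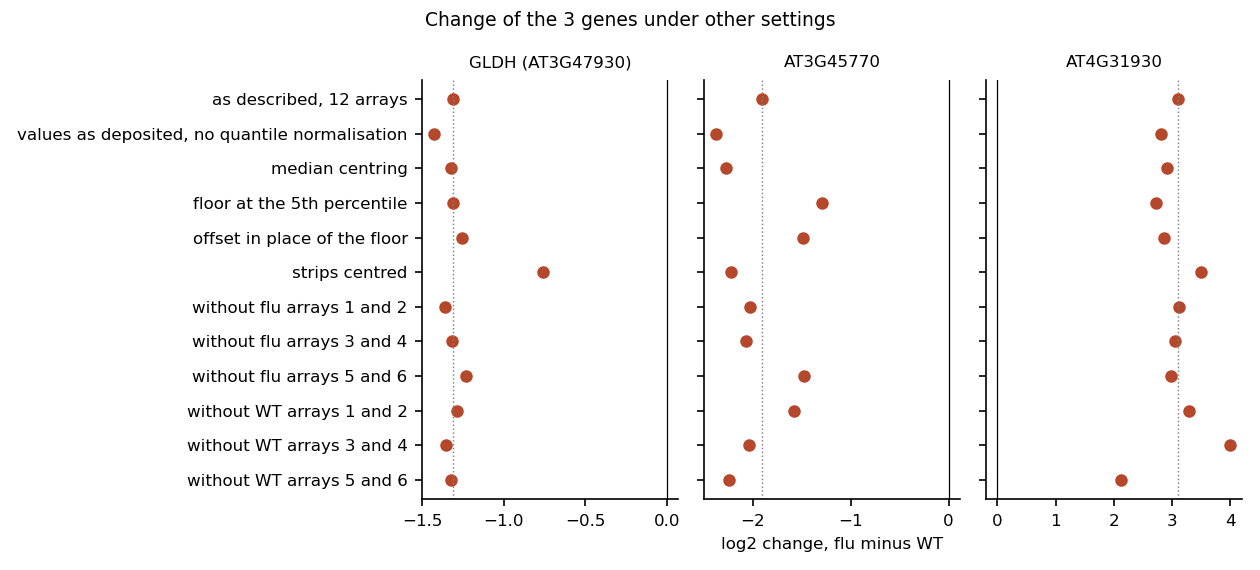
Log2 change, flu minus WT, of the 3 genes as described over 12 arrays (top point, dotted line) and under other scalings, floors, strip centring and with 1 couple of arrays left out. GLDH moves most with strips centred (-0.76), AT3G45770 with the higher floor (-1.29) and AT4G31930 without WT arrays 5 and 6 (2.13).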

How the data were processed

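The deposited series matrix holds 1 linear intensity per feature for each of 12 arrays, scaled by the authors in a way not given in the sources used here. Array platform, hybridisation, background correction and replicate pooling are likewise not given. Groups and replicate numbers come from the titles. A platform table covers 1562 features: 692 carry a single gene and could be named, 870 carry more than 1 and stay unnamed, as do the 1877 that it lacks. Symbols were updated through gene identifiers with the RefSeq table of TAIR10.1, which matched 690 of the 692. No coordinates are given, since the build behind the array is not named.

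A floor of 0.0236, the 1st percentile of all values above 0, was applied before taking log2, and arrays were then quantile normalised. Flu minus WT was fitted over 12 arrays without a block in limma 3.58.1 (R 4.3.3, lmFit and eBayes, two-sided), with Benjamini-Hochberg adjustment over 3439 features and a threshold of 0.05. The fit was tested on simulated data with independent noise on each array and changes in a small part of the features. That simulation held no couples, paired replicate numbers or strips, so it does not show how these affect the adjusted p-values. Same-numbered flu and WT arrays deviated together from their group means (r = 0.368 to 0.539, each best with its own number), so the replicate number pairs them, by this check and not by the labels. Couples and strips were found on these data. Averaging couples gave 3 values per genotype, and centring took the mean deviation of a strip on an array off its features there.

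The 3 genes and all lists were chosen with earlier results of these data known. Named were the 3 genes, every measured gene of the ascorbate synthesis, fatty acid and glycoprotein lists, up to 3 genes of largest absolute change in each other list, and the 3 most similar profiles per gene. A planned list of genes by description was not run, because the tables used hold no descriptions.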

Additional observations from a re-analysis of the deposited data

Results flagged for a closer look

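In 3 of 34 groups of 6 arrays examined, 1 array stood far from the other 5, where chance gives about 1 in 20 for independent arrays. These arrays fall in couples, so that rate may not hold here. In flu array 5 the normalised log2 value of AT2G04540 was -0.58 (deposited intensity 0.647), and the other flu arrays lay between -1.46 and -1.14. In WT array 2 that of AT5G47030 was -0.94 (0.520), with the other WT arrays between -1.93 and -1.58. In flu array 6 that of AT3G57630, the gene most like GLDH, was -1.77 (0.265), with the other flu arrays between -1.35 and -1.13. None of the 3 mitochondrial genes described above had such an array on this scale, which was taken after the floor. Flu array 6 of AT3G45770, deposited at 0.00801 with the other flu arrays between 0.0429 and 0.0982, had been raised to the floor. Its distance before the floor was not examined.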

How the results depend on the processing

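The log2 differences of the 3 genes kept their direction under all 27 alternatives run for them. The genes were chosen on this contrast and their groups did not overlap, so leaving out arrays could hardly reverse them. Nothing is read from the kept direction. With 1 array left out they ran from -1.34 to -1.26 for GLDH, -2.06 to -1.58 for AT3G45770 and 2.65 to 3.48 for AT4G31930. GLDH moved by more than the spread between arrays when strips were centred, to -0.76 with or without couples averaged. The 1796 features passing over 12 arrays (44.0% of them higher) became 1193 with couples averaged, 956 with strips centred too, 1966 with the replicate block, and 1665 to 1791 with 1 array left out. Of 1719 features brighter than the median, 1089 passed, a share of 63.4% against 52.2% of all. As deposited, without quantile normalisation, 34.0% of 1912 were higher and the median of all features was -0.20, against -0.04. Of the 5 other mitochondrial genes, 4 passed over 12 arrays, and the replicate block changed no call on these genes. The count was 2 with strips centred, with or without couples averaged (1697 of all features without averaging), 2 without flu arrays 1 and 2 (1590 of all features), and 3 to 4 with 1 array left out. Only 2 of the 5 were brighter than the median feature, and both passed there. AT2G04540 and AT5G02050 passed under all 30 alternatives (adjusted p up to 0.0151 and 0.0282). AT4G02580 lost the threshold under 19 of 28, its adjusted p being 0.0733 where averaged couples were combined with the replicate block. AT5G47030, which did not pass, turned to 0.24 with strips centred, 0.0057 when flu couple 2 was left out and 0.037 when WT couple 1 was, and ran from -0.15 to 0.072 with 1 array left out (0.03 without flu array 3). Of the 9 most similar genes, 4 were kept with strips centred and 5 with the higher floor. What caused the changes of sign was not tested. Background readings were not used here.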
